A study of Mus musculus with 20 samples.

Results

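Among the reprogramming libraries of this series, 1016 cells carried at least 3 unique molecular identifiers (UMIs, counted RNA molecules) of Amn and Cubn together. These genes encode amnionless and cubilin, the subunits of the endocytic receptor cubam. The cells came from the day 7, day 14 and day 28 libraries of a conversion of extraembryonic endoderm stem (XEN) cells to induced pluripotent stem (iPS) cells. They also had at least 500 genes, at least 2000 UMIs and fewer than 5 UMIs of the collagens Col1a1, Col1a2 and Col3a1, which feeder fibroblasts express. They made up 1016 of the 25467 cells that met these limits in the 6 libraries, and the whole series of 20 libraries holds 134279 cells. They are called Amn/Cubn cells below and were compared with the 21606 cells of the same libraries and limits in which no UMI of either gene was found, the comparison cells. The cells were chosen by their measured UMIs of Amn, Cubn and the collagens, so these levels are given as a description. Amn lies on chr12:111271095-111276426 (plus strand) and Cubn on chr2:13276338-13491813 (minus strand) of GRCm38.

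All 6 libraries came from a single XEN line, 3F-4, which is homozygous for Col1A1TetO-OKSmCh (doxycycline-inducible Oct4, Klf4 and Sox2 with mCherry), for the transactivator R26M2rtTA and for the reporter Oct4-GFPTg. Cells to be converted first had doxycycline for 2 days in XEN medium and were sorted for mCherry. They then grew on mitomycin-treated feeder fibroblasts in serum and LIF with doxycycline, ascorbic acid and the GSK3β inhibitor CHIR99021 for 7, 14 or 28 days. XEN cells, the start of the conversion, were kept in that medium on feeders without doxycycline. Each condition has 2 libraries made as technical duplicates, so the spread between them may not cover the spread between cultures. Cells of days 7, 14 and 28 were sorted on SSEA-1 and GFP into 4 subpopulations that were put together again in about equal amounts, which means that a share here cannot be read as the share in the culture. Counts per gene do not by themselves separate RNA of the inducible cassette from that of endogenous Pou5f1, Klf4 and Sox2. The part of the cassette in these counts was not tested. The paper describes endogenous Oct4 in a state that also expresses XEN genes.

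Visceral endoderm is the epithelium that covers the early postimplantation embryo. It takes up maternal nutrients through megalin (Lrp2) and cubam at its apical surface, with Dab2 as a clathrin adaptor, and it secretes apolipoproteins and carrier proteins such as transthyretin (Ttr) and alpha-fetoprotein (Afp). Its sister tissue, parietal endoderm, lays down the laminins and type IV collagen of Reichert's membrane. Both descend from primitive endoderm, which expresses Gata4, Gata6, Sox17 and Pdgfra, and XEN cells are its cultured counterpart.

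The libraries were uneven in the number of Amn/Cubn cells. At day 7, replicate 1 had 7 such cells and replicate 2 had 54. At day 14 the duplicates had 75 and 101, and at day 28 they had 619 and 160. Summed counts of Amn/Cubn cells ranged from 208310 UMIs in day 7 replicate 1 to 12879910 in day 28 replicate 1, against 43792659 to 79292373 for the comparison cells. Amn/Cubn cells were deeper than comparison cells of their library, with median UMIs per cell of 15628 to 32658 against 11674 to 29428. The 7 cells of day 7 replicate 1 stood apart, with 192 CPM (counts scaled per 1e6 UMIs) of the 6 pluripotent markers where the other libraries had 3735 to 5059 CPM. Calls that turned on that library are given beside the results. Day 28 was sequenced in another project than day 7 and day 14, so day and sequencing project cannot be told apart. Between libraries, 20 to 88 cell barcodes were shared for each pair of the 6, at most 1.36% of the smaller library.

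The share of Amn/Cubn cells among cells within the limits was 0.287% (exact 95% interval 0.115 to 0.590) and 1.02% (0.765 to 1.32) at day 7. It was 1.54% (1.21 to 1.93) and 1.79% (1.46 to 2.17) at day 14. At day 28 it was 11.7% (10.8 to 12.6) and 8.44% (7.23 to 9.78), above every day 7 and day 14 library. These intervals cover counting error only, and 2 libraries a day cannot reach p under 0.05 in an exact permutation test. After each cell was thinned to 2000 UMIs, cells with at least 1 Amn or Cubn UMI were 1.35% and 1.98% at day 7, 2.45% and 2.60% at day 14, and 9.28% and 4.54% at day 28. Thinned XEN cells had 4.49% and 3.54%, so day 28 replicate 2 was near XEN replicate 1 by this measure.

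In embryonic stem (ES) cells, 1 of 7441 and 2 of 9087 cells passed the same rule, at median depths of 13244 and 13274 UMIs. Amn RNA was low but not absent in ES cells, at 1.09 and 0.464 CPM, against 0.139 and 0.133 CPM in XEN cells. XEN cells passed at 2.79% and 2.29%, but 98.9% and 97.7% of those cells had Cubn alone, and the 2 libraries held 2 and 3 Amn UMIs in them. Among Amn/Cubn cells, those with Cubn alone were 71.4% and 27.8% at day 7, 14.7% and 20.8% at day 14, and 7.75% and 29.4% at day 28. In day 28 replicate 1, 81.1% of the Amn/Cubn cells had UMIs of both genes. Both genes were found in 64.4% of the Amn/Cubn cells of day 28 replicate 2, in 70.7% and 41.6% at day 14, and in 28.6% and 57.4% at day 7. In the opposite conversion of ES cells by inducible Gata4, 4.0% and 14.3% of the 48h cells passed, and in established XEN-iPS cells 1.17% and 0.0519% did. The plot of shares by library shows these values.

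**Figure D1:**
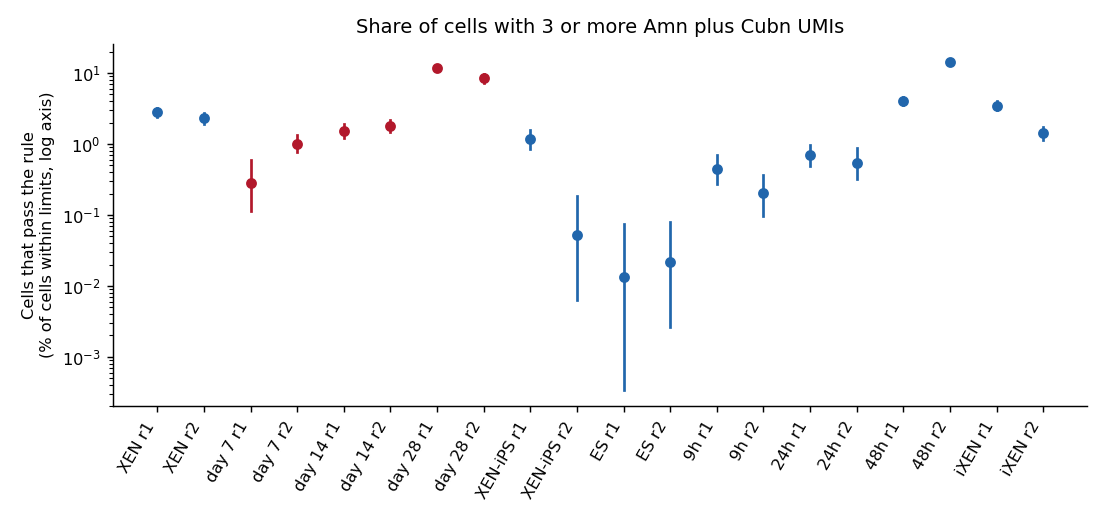
Percentage of cells that passed the Amn and Cubn rule among cells within the limits, on a log axis, for the 20 libraries (r1 and r2 are replicates 1 and 2). Points are shares and lines exact 95% binomial intervals, with day 7, day 14 and day 28 in red. The day 28 libraries lie at 11.7% and 8.44%, above day 7 and day 14.

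The label visceral endoderm was checked against 16 markers other than Amn and Cubn, of which 14 had enough counts to be tested. UMIs summed per library entered edgeR's quasi-likelihood test with the library as a block, and a call required both a Benjamini-Hochberg adjusted p under 0.05 and an absolute log2 fold change of 1 or more. Of the 14, 6 were higher in Amn/Cubn cells, namely Apoc1, Cyp4f14, Apoa1, Lrp2, Apoe and Crxos, and 0 were called lower (median log2 fold change 0.89). Over all 12492 genes tested, 4.03% were called higher and 5.16% lower. Apoc1, Crxos and Cyp4f14 were given as markers of these cells from earlier results of these data and are no independent evidence of the label. The secreted products Ttr, Afp and Rbp4 were not among the higher ones. Ttr was at 37.8, 152 and 278 CPM (lowest, median and highest of 6 libraries) in Amn/Cubn cells and at 99.2, 261 and 439 CPM in comparison cells, lower in 6 of 6 libraries (log2 fold change -0.96, SE 0.15, adjusted p = 0.000375, short of the fold threshold). With both groups limited to cells with a UMI of Gata4, Gata6, Sox17, Sox7 or Pdgfra, Ttr was called lower. With Amn/Cubn cells limited to those with UMIs of both genes, Ttr was again called lower, and Soat2 gained a call as well. Afp had 20 UMIs in all 1016 cells. Rbp4, the plasma retinol carrier, was at 18.2, 108 and 182 CPM against 22.3, 138 and 266 CPM (log2 fold change -0.37, SE 0.20, adjusted p = 0.197). Foxa2, a forkhead factor of visceral endoderm, was at 27.4, 41.5 and 58.8 CPM against 60.1, 68.6 and 77.7 CPM, so the groups did not overlap on the scale of the fit, edgeR's TMM normalization between libraries (log2 fold change -0.78, SE 0.13, adjusted p = 0.000591). Unscaled, they overlapped, at 27.9 to 67.2 CPM against 54.7 to 80.0 CPM, and Foxa2 was lower in 5 of 6 libraries. Apob (56 UMIs) and Cer1 were too low to be tested. As 8 of the 14 markers were not called and Afp was nearly absent, the cells are named here by their rule genes.

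Between Amn/Cubn cells and comparison cells, 503 genes were higher and 645 lower in Amn/Cubn cells, together 9.19% of those tested. Lipid transport genes, the endocytic genes Lrp2 and Dab2 and several genes of pluripotent cells were among the higher ones. Gastrokines, a trefoil factor and the actin-binding proteins Cald1 and Tagln were among the lower ones. The 12 highest and 12 lowest genes with at least 50 CPM and the same direction in all 6 libraries were selected, and 11 of each are described next. Levels and directions per library are on the TMM scale of the fit unless called unscaled. List counts below are to be read beside the 4.03% of all genes called higher and the 5.16% called lower. Of the 361 genes in all lists together, 56 were called. Without day 7 replicate 1, 53 of these calls held (4.01% of all genes were higher and 5.26% lower there), Abca1, Lss and Fbn1 were lost, and Cldn7, Cgn, Dkk1, Rhox5 and Notum were gained. Against comparison cells of matched depth, 33 of the 56 were tested and 28 of them were called, where 2.19% of all genes were higher and 2.46% lower. The 5 that were tested and not called were Abca1, Lss, Crxos, Dppa4 and Ier3.

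Apom, the apolipoprotein that carries sphingosine 1-phosphate on high-density lipoprotein, had the highest log2 fold change of them (4.40, SE 0.34, adjusted p = 1.08e-06). It was at 12.6, 59.4 and 128 CPM in Amn/Cubn cells and at 1.00, 2.82 and 6.05 CPM in comparison cells, and the groups did not overlap, as for 2.67% of all genes tested. Apoc1, an apolipoprotein of triglyceride-rich particles, was at 8.40, 252 and 511 CPM against 0.829, 8.77 and 87.2 CPM. Its log2 fold change was 3.94 (SE 0.33, adjusted p = 1.80e-06), and day 7 replicate 1 alone lay within the range of the comparison cells. Pdlim4, an actin-associated PDZ and LIM domain protein, was at 88.3, 155 and 238 CPM against 9.39, 25.4 and 67.5 CPM without overlap (log2 fold change 2.68, SE 0.22, adjusted p = 1.30e-06). The other higher genes reported were F2r (the thrombin receptor), Ly6e, Fam213a, Coil (coilin of Cajal bodies), Lgals2 (galectin 2), the long noncoding RNA Platr13, Clic6 and the phosphatase Ptpn18, with log2 fold changes of 1.90 to 2.67. Platr13 was the most abundant, at 387, 2104 and 2548 CPM against 284, 493 and 664 CPM. Clic6 differed little at day 7 (log2 fold change 0.19) and more at day 28 (3.37).

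Tff1, a trefoil peptide of stomach mucus, had the lowest log2 fold change (-3.67, SE 0.34, adjusted p = 4.21e-06), at 1.36, 6.12 and 84.0 CPM in Amn/Cubn cells and 35.2, 70.5 and 330 CPM in comparison cells. Gkn2 and Gkn1, gastrokines secreted by the gastric epithelium, followed. Gkn2 was at 3.65, 47.9 and 112 CPM against 28.8, 562 and 1514 CPM (log2 fold change -3.61, SE 0.16, adjusted p = 4.47e-09). Gkn1 was at 0, 30.2 and 81.4 CPM against 14.7, 361 and 1027 CPM (log2 fold change -3.41, SE 0.18, adjusted p = 2.89e-08). Both gastrokines were lower in every library, as the selection of these genes required, and their level in comparison cells spanned a wide range over the days. Cells with at least 3 Gkn2 UMIs were 8% and 2.97% of Amn/Cubn cells at day 14 and 4.68% and 26.9% at day 28, against 44.2%, 25.5%, 28.4% and 51.1% of comparison cells. At day 7 they were 0 of 7 and 0 of 54 Amn/Cubn cells, which allows shares of up to 42.9% and 5.56%, against 5.11% and 3.65% of comparison cells. The other lower genes reported were Nupr1, S100a6, Clu (clusterin), Cald1 and Tagln (actin-binding proteins), Ifitm1, Ldhb and CTGF (named as in the files), with log2 fold changes of -2.65 to -1.85. Cald1 was at 38.9, 73.9 and 101 CPM against 225, 268 and 283 CPM, without overlap.

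**Figure D2:**
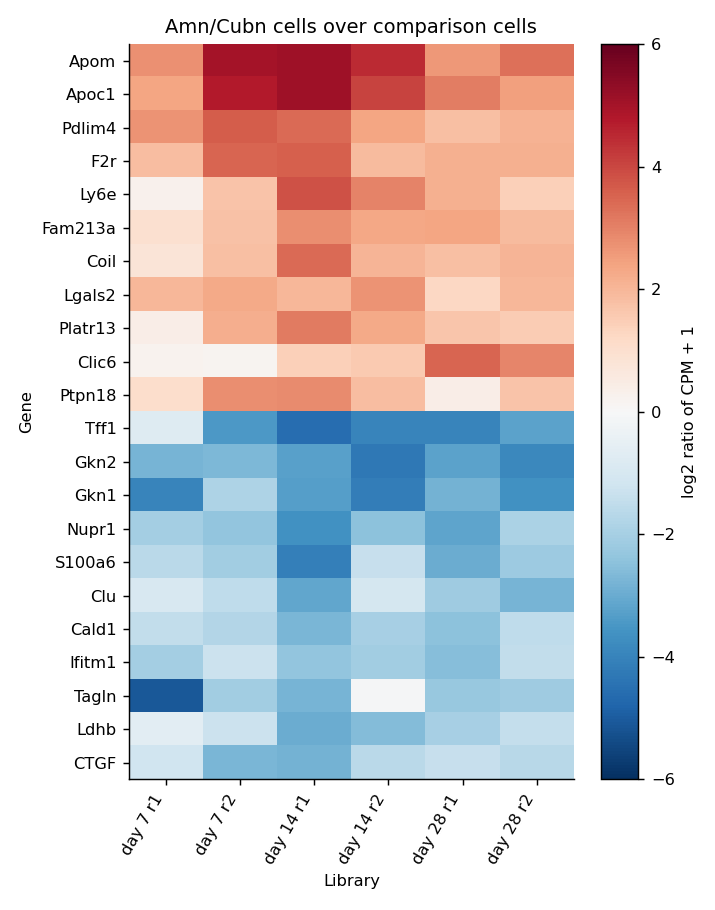
Log2 ratio of CPM + 1 in Amn/Cubn cells over comparison cells, for the 11 higher and 11 lower genes reported (rows) in the 6 libraries (columns, r1 and r2 are replicates 1 and 2). CPM are TMM-scaled. Red is higher and blue lower in Amn/Cubn cells. Every gene keeps its colour in all 6 libraries on this scale, as the selection required. Ratios are near 0 for Clic6 at day 7 and for Tagln in day 14 replicate 2, where unscaled CPM of Tagln turn to 52.3 against 50.4.

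Genes listed as fibroblast genes moved with this comparison, and how much of their sum is RNA of fibroblasts was not tested. Mmp2 and Fbn1 held most of its UMIs in comparison cells (2336 and 2252), where Postn, Dcn and Lum had 151, 83 and 11. XEN libraries, in which no cell exceeded the collagen limit, held 149 and 303 UMIs of Fbn1 among 107877857 and 120099932 UMIs in all. XEN cells were grown on feeders as well. The 15 listed fibroblast genes summed to 0.930 to 7.27 CPM in Amn/Cubn cells and to 9.36 to 28.5 CPM in comparison cells, and 2 of the 5 tested among them, Mmp2 and Fbn1, were lower. Without day 7 replicate 1, Mmp2 was called and Fbn1 was not (log2 fold change -1.30, adjusted p = 0.0502). The part of fibroblast RNA in Tagln, Cald1, S100a6 and CTGF was not tested. With both groups limited to cells with a UMI of Gata4, Gata6, Sox17, Sox7 or Pdgfra, these 4 genes had log2 fold changes of -1.93, -2.16, -2.49 and -1.97. The calls of Mmp2 and Fbn1 also held in those cells.

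Y-linked and X-inactivation transcripts also differed. RNA of Y-linked genes was at 0 to 14.0 CPM (unscaled) in Amn/Cubn cells and at 0.163 to 14.7 CPM in comparison cells, and Ddx3y and Eif2s3y were called lower. In day 7 replicate 2, 1 of the 2 libraries with any such RNA in Amn/Cubn cells, the summed levels were 14.0 and 14.7 CPM. In cells with both rule genes the call of Ddx3y was lost (adjusted p = 0.0614), and neither gene was tested at matched depth. XEN libraries, in which no cell exceeded the collagen limit, held 2538 and 1968 UMIs of Ddx3y, 995 and 789 of Eif2s3y and 339 and 390 of Uty. On the scale of the fit with XEN, Ddx3y was at 22.1 and 17.0 CPM there and at 0.161 and 0 CPM in Amn/Cubn cells of day 28, and the 3 tested Y-linked genes were all lower in the latter. Xist, the RNA that coats the inactive X chromosome, had unscaled levels in Amn/Cubn cells of 9.60 and 33.5 CPM in the day 7 duplicates, of 23.4 and 30.2 CPM in those of day 14, and of 27.6 and 52.2 CPM in those of day 28. Comparison cells had 3.72 and 6.82, 5.61 and 11.8, and 22.9 and 18.7 CPM, less than Amn/Cubn cells in each of the 6 libraries (log2 fold change 1.32, SE 0.21, adjusted p = 0.000488).

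Promoters of the named genes, from 250 bases before to 50 bases after the start (RefSeq, GRCm38.p6), were searched on both strands for 4 motifs. The letters AGATAA, which zinc finger factors of the Gata4 family bind, were held by 11.2% of all 32851 promoters in the table. The core motif of the factor HNF1 was searched as GTTAAT and was held by 7.10% of these promoters. That of the nuclear receptor HNF4 was searched as AAAGTCC and was held by 4.21% of them. The forkhead motif was searched as TGTTTAC and was held by 3.65% of them. The table held promoters for 6 of the 12 higher genes and 7 of the 12 lower ones, and neither the Amn nor the Cubn promoter matched any of the 4 motifs. Of the 6 higher genes, Lgals2 alone matched, with 3 of the motifs. Among the lower genes, Gkn1 and Gkn2, neighbours in opposite orientation on chromosome 6, each hold the zinc finger motif, and Cald1 and Ifitm1 hold the forkhead motif, Cald1 at 1 of its 2 starts. The 3 promoters that hold the zinc finger motif are shown for that match, with all matches in capitals (from left to right the zinc finger, HNF4 and HNF1 motifs in Lgals2, and the zinc finger motif in the others). They lie at chr15:78855480-78855779 (minus strand), chr6:87373115-87373414 (plus strand) and chr6:87350866-87351165 (minus strand). A match is a description of the letters, not of binding.
Lgals2: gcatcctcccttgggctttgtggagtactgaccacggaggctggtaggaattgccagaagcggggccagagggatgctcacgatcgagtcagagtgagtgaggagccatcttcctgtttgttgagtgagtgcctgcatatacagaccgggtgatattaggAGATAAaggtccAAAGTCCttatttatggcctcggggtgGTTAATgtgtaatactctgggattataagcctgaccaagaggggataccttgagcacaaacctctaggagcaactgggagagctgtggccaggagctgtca
Gkn2: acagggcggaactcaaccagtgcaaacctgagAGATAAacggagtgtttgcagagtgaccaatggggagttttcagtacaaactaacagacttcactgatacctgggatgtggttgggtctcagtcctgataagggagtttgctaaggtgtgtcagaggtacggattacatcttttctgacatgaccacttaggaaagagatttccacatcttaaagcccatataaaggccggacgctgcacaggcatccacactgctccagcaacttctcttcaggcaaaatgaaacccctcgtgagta
Gkn1: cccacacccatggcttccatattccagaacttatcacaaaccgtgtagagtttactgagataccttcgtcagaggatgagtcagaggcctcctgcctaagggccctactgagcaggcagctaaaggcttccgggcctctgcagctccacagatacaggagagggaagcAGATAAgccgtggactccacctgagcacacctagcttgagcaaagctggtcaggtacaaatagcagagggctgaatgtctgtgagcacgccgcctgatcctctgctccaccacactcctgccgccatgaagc

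Among genes of uptake, Lrp2 and Dab2, partners of cubam, were higher. Over all genes tested, 4.03% were higher and 5.16% lower, so 1 higher gene in a list of 17 to 20 is near the share of all genes. Such a count is no result about the list. Of 20 tested genes of clathrin endocytosis and recycling, 2 were higher and 0 lower, with a median log2 fold change of 0.10 (all genes -0.04). Lrp2, megalin, was at 25.2, 72.0 and 122 CPM in Amn/Cubn cells and at 15.9, 25.0 and 34.9 CPM in comparison cells (log2 fold change 1.71, SE 0.23, adjusted p = 9.49e-05). It was higher in 5 of 6 libraries, and day 7 replicate 1 was the exception, but in 6 of 6 unscaled. Dab2 was at 147, 401 and 502 CPM against 96.3, 123 and 166 CPM, higher in 6 of 6 (log2 fold change 1.56, SE 0.16, adjusted p = 9.73e-06). Of 16 genes of cobalamin and iron handling, 2 were higher (Lrp2 and the iron exporter Slc40a1) and 1 lower (Tfrc, the transferrin receptor), with a median of 0.18. Of 19 tested lysosomal genes, Ctsc (cathepsin C) was higher and none was lower, with a median of -0.19. Of 20 epithelial genes Cdh1 (E-cadherin) was called, with a median of 0.06. The junction genes Cldn7 (claudin 7) and Cgn (cingulin), with log2 fold changes of 0.96 and 1.00, were just short of the fold threshold and passed it both without day 7 replicate 1 and at matched depth (1.01 and 1.03). Cdh1 was at 21.0, 97.4 and 135 CPM against 18.0, 26.3 and 35.9 CPM (log2 fold change 1.81, SE 0.18, adjusted p = 9.73e-06). Of 17 tested genes of the apical membrane and microvilli, Espn (espin) was called, with a median of 0.32.

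Apolipoproteins and lipid transport gave 6 higher and 1 lower of 14 tested genes, with a median log2 fold change of 0.94. Beside Apom and Apoc1, Apoe was at 63.0, 1392 and 1856 CPM against 124, 415 and 504 CPM (log2 fold change 1.59, SE 0.23, adjusted p = 0.000205), higher in 5 of 6 libraries. Apoa1 (159 UMIs), Apoa4 (135 UMIs) and the fatty acid carrier Fabp1 were also higher, at medians of 5.12, 2.47 and 5.07 CPM against 0.883, 0.291 and 0.747 CPM. The call of Fabp1 was lost in cells with a core endoderm UMI (adjusted p = 0.0567) and in cells with both rule genes (adjusted p = 0.318), and none of these 3 genes was tested at matched depth. Abca1, the cholesterol exporter, was lower (log2 fold change -1.03), but missed the fold threshold without day 7 replicate 1 (-0.99), in cells with both rule genes (-0.94) and at matched depth (-0.93). Apob, Apoc3 and Apoh had 56, 25 and 0 UMIs in Amn/Cubn cells and were not tested. Of 9 tested secreted carrier proteins, 0 were higher and 2 lower, among them Fgb (the fibrinogen beta chain), with a median of -0.42. Of 16 cholesterol synthesis genes, Lss (lanosterol synthase) was called higher (log2 fold change 1.10), and the median was 0.44. It missed the fold threshold without day 7 replicate 1 (0.98) and at matched depth (0.9986).

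Among transcription factors of visceral endoderm, 3 of 11 tested were higher and none lower (median log2 fold change 0.83). These were Lhx1, at a median of 1.40 CPM, the homeobox gene Crxos and the T-box gene Tbx3. At matched depth Tbx3 was called, Crxos was not and Lhx1 was not tested. Hnf4a, the nuclear receptor of visceral endoderm and liver, was at 5.21, 6.28 and 10.4 CPM against 2.84, 4.77 and 7.02 CPM, short of the fold threshold (log2 fold change 0.64, SE 0.21, adjusted p = 0.0405). Of 9 genes of the embryonic and anterior visceral endoderm, Lefty1, a Nodal antagonist, and Lhx1 were higher, with a median of 0.83. Lefty1 was at 0, 27.7 and 65.7 CPM against 0.226, 2.01 and 7.94 CPM (log2 fold change 3.15, SE 0.53, adjusted p = 0.000662). The primitive endoderm factors Gata4, Gata6 and Pdgfra had log2 fold changes of -0.15, 0.23 and 0.21 (adjusted p = 0.449, 0.156 and 0.366). Of the 13 genes of that list Dab2 was called, and the median was 0.23. Sox17 was lower in 6 of 6 libraries but short of the fold threshold, with a log2 fold change of -0.73 (SE 0.11, adjusted p = 0.000194). In cells with both rule genes Sox17 passed that threshold and was called lower.

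Parietal endoderm and basement membrane genes gave 1 higher and 4 lower of 20, with a median log2 fold change of -0.52. Thbd (thrombomodulin), Vim (vimentin), Fst (follistatin) and Plat (tissue plasminogen activator) were lower, and Hspg2 (perlecan) was higher. Thbd was at 4.56, 6.43 and 58.8 CPM against 20.2, 28.3 and 49.9 CPM (log2 fold change -2.09, SE 0.31, adjusted p = 0.000194), and the highest value was that of day 7 replicate 1. Hspg2 was at 89.4, 125 and 171 CPM against 50.4, 57.5 and 67.4 CPM without overlap (log2 fold change 1.15, SE 0.13, adjusted p = 2.29e-05). The major chain Lama1 had a log2 fold change of -0.30 (adjusted p = 0.0606). Summed over the 11 parietal markers, Amn/Cubn cells had 6293 to 8896 CPM and comparison cells 6806 to 11916 CPM. Of 11 tested BMP and SMAD target genes, Id4, Nog, Bmp4 and Bambi were lower and none was higher, with a median of -0.72. When Amn/Cubn cells were set against comparison cells of matched depth, Bambi alone of 7 tested genes was called, beside 2.46% of all genes called lower there, and the median was 0.07.

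**Figure D3:**
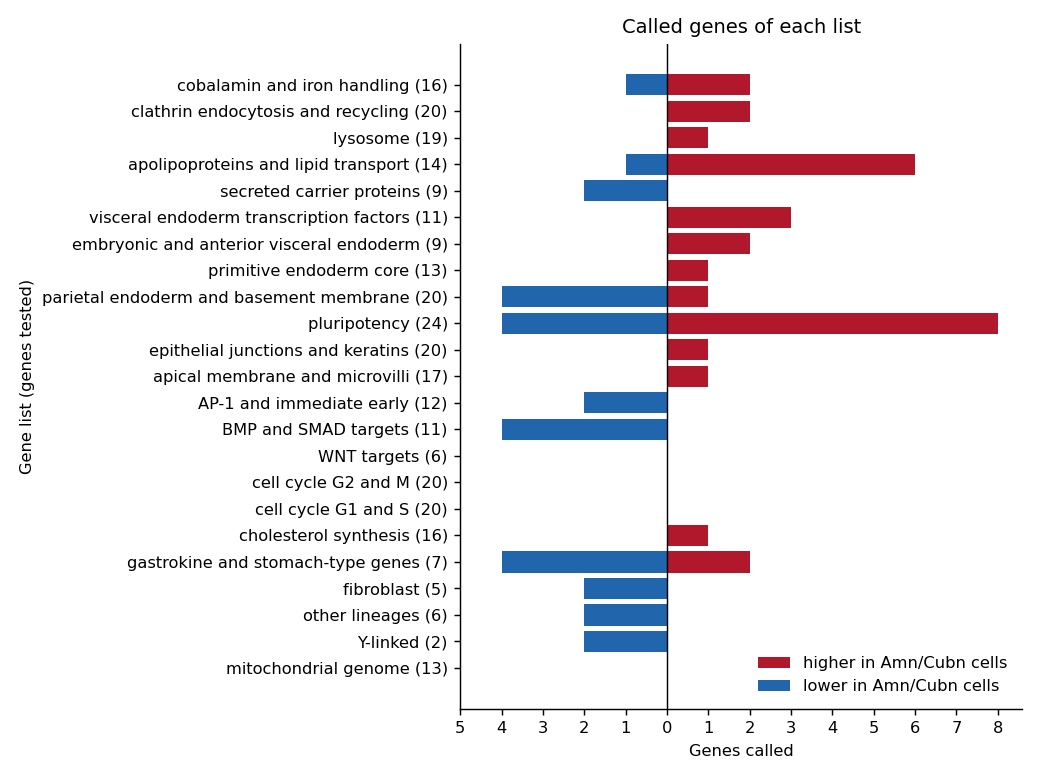
Number of genes of each list called higher (red, to the right) or lower (blue, to the left) in Amn/Cubn cells against comparison cells of the 6 libraries, with the number of genes tested in brackets. Pluripotency (8 higher, 4 lower) and apolipoproteins and lipid transport (6 higher, 1 lower) hold the most higher calls.

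Pluripotency genes were split. Of 24 tested genes, 8 were higher in Amn/Cubn cells (Dnmt3l, Dppa5a, Pou5f1, Tcl1, Dppa2, Dppa4, Klf9 and Tfcp2l1) and 4 were lower (Nanog, Sox2, Dppa3 and Fgf4), with a median log2 fold change of 0.67. Pou5f1, the POU factor also known as Oct4, had day 7 levels of 0 and 120 CPM in Amn/Cubn cells, day 14 levels of 118 and 106 CPM and day 28 levels of 134 and 122 CPM. Comparison cells had 2.26 and 12.5 CPM in the day 7 duplicates, 10.7 and 20.4 CPM in those of day 14, and 73.6 and 108 CPM in those of day 28. Outside day 7 replicate 1, the level in Amn/Cubn cells thus stayed between 106 and 134 CPM while that in comparison cells was higher at day 28 than at days 7 and 14. The log2 fold change was 1.91 over all libraries (SE 0.38, adjusted p = 0.00201), and 3.09, 2.86 and 0.52 at days 7, 14 and 28. It differed between days (adjusted p = 4.08e-11, edgeR test of the difference, in which 437 genes, 3.5% of all, were called, but 2 without the library block). Dppa5a, an RNA-binding protein of pluripotent cells with near-identical gene copies that make its count uncertain, had day 7 levels of 164 and 3584 CPM, day 14 levels of 4723 and 3231 CPM and day 28 levels of 4818 and 4491 CPM. Comparison cells had 202 and 309, 511 and 496, and 2498 and 2662 CPM. Dnmt3l, a cofactor of DNA methylation, was at 0, 51.1 and 83.1 CPM against 0.0502, 2.61 and 20.7 CPM (log2 fold change 3.19, SE 0.31, adjusted p = 6.48e-06).

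Nanog was at 0, 0.433 and 25.7 CPM against 0.0753, 1.21 and 52.8 CPM (log2 fold change -1.62, SE 0.24, adjusted p = 0.000234), with its counts nearly all at day 28. Sox2 was at 0, 1.75 and 37.9 CPM against 0.0502, 1.45 and 73.4 CPM (log2 fold change -1.47, SE 0.27, adjusted p = 0.0012). Unscaled, comparison cells, which had doxycycline as well, ranged from 0.0457 to 74.9 CPM of Sox2 and from 94.3 to 193 CPM of Klf4. XEN libraries, without doxycycline, held 7 and 12 UMIs of Sox2 and 18285 and 16962 of Klf4. These were among 107877857 and 120099932 UMIs in all. How much of the Sox2 and Klf4 levels is cassette RNA was not tested. When both groups were limited to cells with a UMI of a core endoderm gene, 11 of the 24 pluripotency genes were higher and 0 lower (4.66% and 5.64% of all genes tested there), and Nanog and Sox2 had log2 fold changes of -0.95 and -0.83. Dppa3 and Fgf4 had -0.92 and -0.38, so that none of the 4 lower calls remained in this setting. Against comparison cells of matched depth, these 4 genes were too low to be tested, and of the 18 pluripotency genes that were tested 7 were higher and 0 lower (2.19% and 2.46% of all genes tested there). Dppa3 was called lower although it was higher in 3 of 6 libraries. Zfp42 (Rex1) differed between days, with log2 fold changes of 2.85, 2.21 and -0.76 at days 7, 14 and 28 (adjusted p = 1.44e-16). At 2000 UMIs per cell, Pou5f1 and Gata4 or Gata6 were found together in 0 of 7 and 0 of 54 Amn/Cubn cells at day 7 (up to 42.9% and 5.56%), in 6.67% and 6.93% at day 14 and in 6.62% and 8.75% at day 28. The same held for 0.0905% and 0.404%, 0.414% and 0.995%, and 1.38% and 1.31% of comparison cells. Without thinning, they were found together in 0% and 46.3%, 65.3% and 59.4%, and 75.8% and 81.2% of Amn/Cubn cells, against 2.85% and 4.42%, 4.49% and 8.92%, and 20.9% and 25.1% of the shallower comparison cells. Cells with the 5% highest doublet scores were 1.85% to 57.1% of Amn/Cubn cells and 3.88% to 6.85% of comparison cells per library, and the part of doublets was not tested. Without those cells, Pou5f1 and Dppa5a had log2 fold changes of 1.95 and 1.99.

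**Figure D4:**
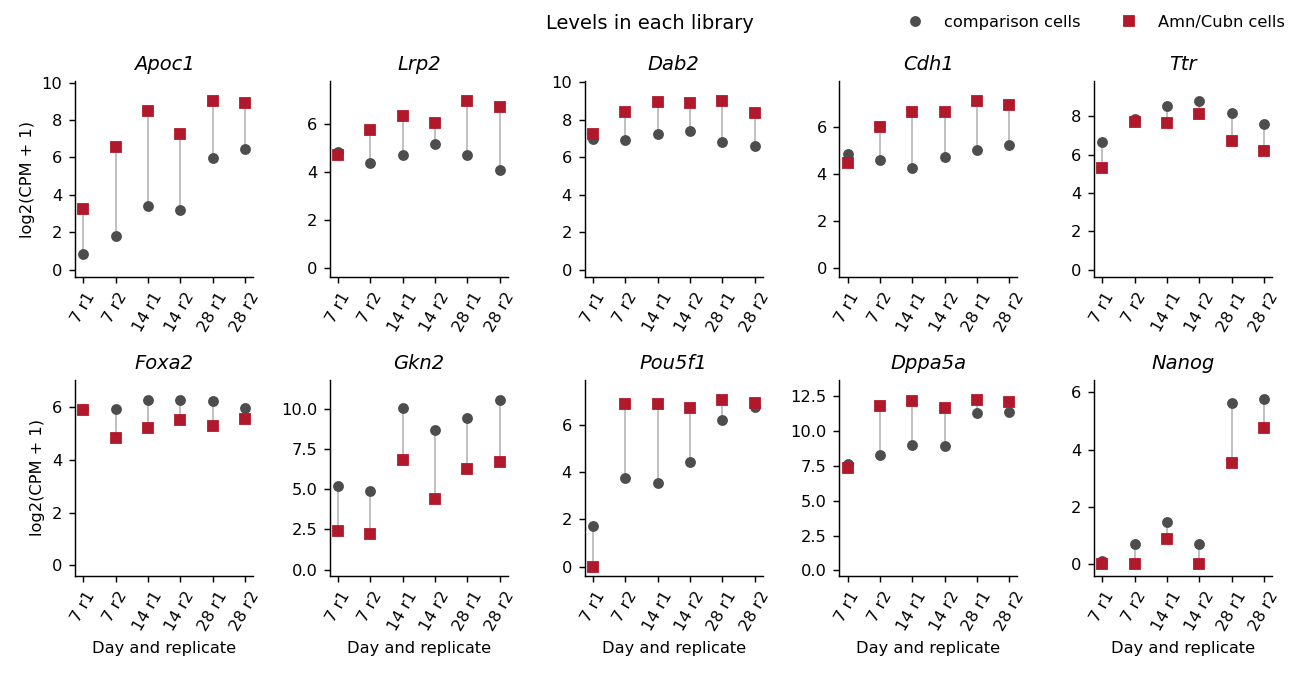
Level of 10 genes, as log2(CPM + 1) of summed counts, in Amn/Cubn cells (red squares) and comparison cells (grey circles) of each library, with day and replicate on the x axis and a line joining the groups of 1 library. Pou5f1 in Amn/Cubn cells lies between 106 and 134 CPM in every library but day 7 replicate 1, and Gkn2 and Ttr are lower than in comparison cells in all 6.

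Shares of cells with a UMI were also compared at equal depth, where the test had little room to pass. Of 44 markers compared over 6 libraries with 2000 UMIs per cell, 0 had an adjusted p under 0.05 in the exact permutation test of sign flips, 6 had an unadjusted p under 0.05, and 0.031 is the smallest p it can give. An adjusted p under 0.05 would need most of the 44 markers to reach that smallest p. The lack of adjusted calls therefore cannot decide whether a marker differs at equal depth. Dab2 was found in 42.6%, 55.2% and 60.6% of Amn/Cubn cells (lowest, median and highest library) against 17.2%, 20.7% and 26.7% of comparison cells, higher in 6 of 6 (exact permutation p = 0.031, adjusted p = 0.183). In the 7 cells of day 7 replicate 1 a share of 0% allows up to 42.9%. It allows up to 5.56% in day 7 replicate 2, and up to 4% and 2.97% in the day 14 duplicates. Foxa2 was found in 0%, 6.10% and 10.9% against 8.46%, 13.5% and 15.5%, lower in 6 of 6. Sox17 was found in 0%, 18.2% and 34.7% against 16.4%, 27.6% and 38.6%, also lower in 6 of 6. Nanog was found in 0%, 0% and 2.5% against 0.0203%, 0.144% and 5.32%, lower in 6 of 6, and Sox2 was lower in 5 libraries and higher in 0 (adjusted p = 0.183 for each). A share of 0% counted as lower, and the median share of Nanog in comparison cells was below each of the limits above. These counts of libraries are therefore not read as a difference at equal depth for Nanog or Sox2. Apoc1 was found in 0%, 31.4% and 58.2% against 0.181%, 1.51% and 11.3%, higher in 5 of 6. Lum and Dcn, fibroblast genes that endoderm should lack, were found in 0% of Amn/Cubn cells and in at most 0.0755% and 0.101% of comparison cells. Both groups had to have fewer than 5 UMIs of the collagens, so these low shares follow in part from the selection. Before thinning, median depths differed as given above, and Dab2 was found in 85.2%, 95.8% and 100% against 62.5%, 65.8% and 72.9%.

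The cells just inside and just outside the threshold differed by degree. The 478 cells with 2 Amn or Cubn UMIs had 134 CPM of Apoc1, 692 CPM of Apoe and 236 CPM of Ttr, and the 199 cells with 3 had 262, 964 and 184 CPM. In the pooled cells the levels of these 3 genes continued in the same directions with more UMIs. In the 374 cells with 10 or more, Apoe was at 2177 CPM, Apoc1 at 606 CPM and Lrp2 at 167 CPM, while Rbp4 was at 18.1 CPM and Ttr at 102 CPM. Apob was at 0.224 CPM with 3 UMIs and at 5.16 CPM with 10 or more. Gkn2 was at 584 CPM in cells without a UMI, 338 CPM with 1, 128 CPM with 2 and 57.5 CPM with 10 or more. Gata6 ranged from 98.0 to 161 CPM and Lama1 from 361 to 429 CPM over all 7 classes. The bins differ in their libraries, because cells with 5 or more UMIs came from 5 libraries, and the day 28 libraries gave 274 and 65 of the 374 cells with 10 or more, so these levels are a description. Within the 5 libraries that held cells with 10 or more, Apoe and Apoc1 were highest in these cells in 5 of 5 and Lrp2 in 4 of 5. Ttr was lowest in them in day 28 replicate 1 alone and, in day 14 replicate 1, highest (397 CPM, against 326 CPM in cells without a UMI). Rbp4 was also lowest in them in day 28 replicate 1 alone, and within day 28 it was at 23.5 and 22.7 CPM in cells without a UMI and at 9.02 and 12.6 CPM in cells with 10 or more.

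**Figure D5:**
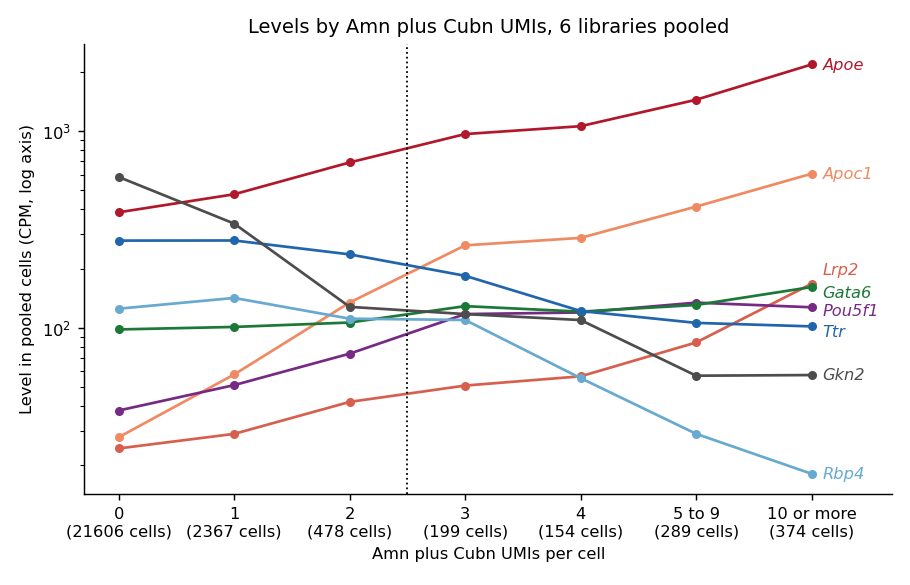
Level of 8 genes in CPM of pooled cells (log axis) by the number of Amn plus Cubn UMIs per cell, with the number of cells under each class, for the 6 libraries together. The dotted line marks the threshold of 3 UMIs, Apoe, Apoc1 and Lrp2 are highest in pooled cells with 10 or more UMIs, and the pooled level of Rbp4 is lowest there, which held within 1 of 5 libraries.

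The 733 cells with UMIs of both genes, the 136 with Amn alone and the 147 with Cubn alone are described by their pooled levels. Lrp2 was at 126 CPM with both, 62.4 CPM with Amn alone and 55.2 CPM with Cubn alone. Apoe was at 1763, 1672 and 818 CPM and Apoc1 at 503, 323 and 277 CPM in the same order. Ttr was at 107, 228 and 109 CPM, and Pou5f1 at 123, 126 and 138 CPM. The median depth of these classes was 20527, 17230.5 and 25002 UMIs, and 605 of the cells with both genes came from day 28. Not every order held within days. At day 14 Apoc1 was at 282, 128 and 221 CPM in the same order, and Ttr was at 238, 389 and 142 CPM there and at 87.5, 122 and 104 CPM at day 28.

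Between days, few genes of the Amn/Cubn cells themselves were called, with 2 libraries each. From day 7 to day 14, 0 of 10845 genes were called by edgeR, 637 had an unadjusted p under 0.05, and DESeq2 called 17. Between day 28 and day 7, 50 genes were called (25 higher and 25 lower at day 28, 0.461% of those tested), but only 2 without day 7 replicate 1. Gkn1 was at 76.9 and 83.6 CPM at day 28 and at 0 and 3.82 CPM at day 7. Gkn2 was at 77.1 and 106 CPM against 4.43 and 3.82 CPM (log2 fold change 4.53, SE 0.89, adjusted p = 0.0402). In comparison cells Gkn2 was at 706 and 1514 CPM at day 28 and at 35.4 and 28.8 CPM at day 7, so both classes differed in the same direction. Mylpf, Fam25c and Alpl (alkaline phosphatase) were also higher at day 28. Rbp4 was lower at day 28, at 19.1 and 18.7 CPM against 129 and 133 CPM (log2 fold change -2.79, SE 0.38, adjusted p = 0.0118). Comparison cells likewise had 23.4 and 22.3 CPM of Rbp4 at day 28 and 213 and 266 CPM at day 7. Aifm3, Nkain4, Cited1 and Pdlim7 were lower as well, and each of these 10 calls was lost when at least 1 of the libraries was left out. Between day 28 and day 14, 11 genes were called (0.101%, with 0.0738% higher and 0.0277% lower at day 28), and 0 without day 14 replicate 2 and 1 without day 7 replicate 1. Those with at least 50 CPM were the long noncoding RNA Meg3 and Mylpf, higher at day 28, and Rbp4 and Flt1, lower. Rbp4 was at 98.0 and 190 CPM at day 14.

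Against XEN cells of the same sequencing project, Amn/Cubn cells of day 28 had 1629 genes higher and 1211 lower of 10845 tested (15% and 11.2%, together 26.2%). The XEN cells were all 6708 and 5796 cells within the limits, including 187 and 133 that passed the rule themselves. Day 28 cells had doxycycline and were sorted on mCherry and later on SSEA-1 and the Oct4 reporter, and XEN cells were not. The sorting, the doxycycline and the day cannot be told apart here, also for the pluripotency genes. Levels here are on the scale of the fit with the XEN libraries. Of 23 tested pluripotency genes 19 were higher and 1, Lin28a, was lower, and the median log2 fold change was 7.35, also with the 1 gene without a XEN UMI at its bound (all genes 0.01). Pou5f1 was at 137 and 125 CPM against 0.593 and 0.735 CPM, and Dppa5a at 4918 and 4614 CPM against 0.471 and 0.649 CPM. Comparison cells of day 28 were not tested against XEN. Unscaled, they had 74.0 and 110 CPM of Pou5f1 and 61.2 and 89.0 CPM of Apoc1, and Dppa5a reached 2718 CPM in comparison cells. A difference from XEN given here is thus not shown to be particular to Amn/Cubn cells. Apoc1 was at 522 and 495 CPM, where the XEN libraries held 0 and 9 UMIs. Pdlim4 was at 243 and 151 CPM and had no UMI in either XEN library, which puts it at least 5414-fold higher when XEN is set to a floor of 3 counts per library. Cyp4f14, a cytochrome P450, had no XEN UMI either and was at least 1042-fold higher. Alpl and Wfdc2 had 1 and 3 XEN UMIs in all and were at 60.7 and 53.1 and at 104 and 62.2 CPM.

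Apolipoproteins and lipid transport gave 9 higher and 1 lower of 14 genes against XEN (15% and 11.2% of all genes), with a median log2 fold change of 2.05. Apoe was at 1820 and 1263 CPM against 9.05 and 13.0 CPM. Unscaled, comparison cells of day 28 had 507 and 505 CPM of Apoe, above XEN as well, but 25.3 and 16.2 CPM of Lrp2, near XEN. Apom was at 42.9 and 46.1 CPM against 0.951 and 1.32 CPM. Lrp2 was at 125 and 105 CPM against 18.9 and 18.4 CPM (log2 fold change 2.63, SE 0.27), and Cdh1 at 138 and 123 CPM against 3.78 and 5.91 CPM. Ttr was at 106 and 73.8 CPM against 61.0 and 51.2 CPM, which did not pass the test (adjusted p = 0.201), and Afp was lower (0.886 and 0.322 CPM against 3.08 and 12.2 CPM). Of 13 primitive endoderm genes 4 were higher and 4 lower. Gata4 was at 80.4 and 72.9 CPM against 185 and 189 CPM (log2 fold change -1.28, SE 0.27, adjusted p = 0.00139), and Sox17 and Sox7 were lower too. Comparison cells were below XEN in Gata4 too, at 57.8 to 102 CPM unscaled over the 6 libraries. Gata6 had a log2 fold change of -0.73 and was not called. Of 20 parietal endoderm and basement membrane genes, 1 was higher and 11 were lower, with a median of -1.33, among them Thbd (4.91 and 7.73 CPM against 94.7 and 85.1 CPM), Col4a1 and Lamc1. Unscaled Thbd in comparison cells was at 19.3 to 44.4 CPM over the 6 libraries, also below XEN. The 5 lowest genes with at least 50 CPM were Phlda2, Flrt2, Timp2, Ankrd1 and Cryab. Cryab, a small heat shock protein, was at 51.8 and 99.0 CPM against 1455 and 2104 CPM.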

How the data were processed

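Single cells were profiled with 10x 3' v2 libraries in 20 samples. The deposited tables hold UMI counts per cell and gene that the authors made with SEQC on GRCm38/mm10, after removal of cells with over 20% mitochondrial molecules. Their deposited cluster column was not used. Cells were kept and classed by the limits in the text, genes of the rule were left out of the tests, and counts were summed per library and class. edgeR 4.0.16 in R 4.3.3 (TMM normalization, low-count filter, quasi-likelihood test, Benjamini-Hochberg adjustment) compared the classes with the library as a block, and days and XEN without a block. Calls needed an adjusted p under 0.05 together with an absolute log2 fold change of 1 or more. With 3 to 5 residual degrees of freedom, p-values measure the spread between libraries only. Shares of cells were compared by an exact two-sided sign-flip permutation test over 6 libraries after thinning to 2000 UMIs. Scrublet marked under 0.5% of cells in nearly every library and was taken not to have worked, so cells with the 5% highest scores were left out as an alternative chosen after seeing the data.

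Among called genes of 50 CPM or more, the text names the 12 with the highest and the 12 with the lowest log2 fold change and 1 direction in all 6 libraries, and the 5 highest and 5 lowest between days and against XEN. Of these, 2 genes are not reported here. Members, gene lists and markers were chosen with earlier results of these data known. Scripts were tested on simulated data. Other alternatives were DESeq2 1.42.0, RLE size factors, no low-count filter, other UMI thresholds, depth-matched cells, a replicate block and each library left out.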

Additional observations from a re-analysis of the deposited data

Results flagged for a closer look

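For 12 of the 22 named genes reported the difference between Amn/Cubn cells and comparison cells itself differed between days (edgeR quasi-likelihood test of the difference, Benjamini-Hochberg adjusted p under 0.05). Over all 12492 genes tested, 437 (3.5%) were called. With 2 libraries a day, and day 28 in another sequencing project, day and project cannot be told apart, and without the library block 2 of all genes were called.

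The log2 fold change at day 28 minus that at day 7 was -2.26 for Apom, -2.27 for Apoc1, -1.49 for Pdlim4 and -1.61 for Ptpn18. These genes were higher in Amn/Cubn cells in 6 of 6 libraries, with a smaller log2 fold change at day 28. The same difference was 3.19 for Clic6, whose log2 fold change was 0.19 at day 7 and 3.37 at day 28, and 0.61 for Fam213a. For Tff1, lower in 6 of 6 libraries, it was -1.95. The log2 fold change at day 28 minus that at day 14 was -1.66 for Ly6e, -0.83 for Coil and -1.10 for Platr13, which were higher in every library. It was 1.06 for Ldhb, lower in every library, and -1.83 for Tagln. Tagln was lower in every library on the TMM scale, but in day 14 replicate 2 the direction rests on that scaling, with 47.1 CPM in Amn/Cubn cells and 49.0 CPM in comparison cells, and 52.3 and 50.4 CPM unscaled.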

How the results depend on the processing

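For Amn/Cubn cells against comparison cells, 503 of 504 alternative values of the 24 named genes kept direction and call, and CTGF missed the threshold after thinning. These genes were selected for extreme fold changes and 1 direction in all libraries, so this follows in part from the selection. Of all genes called in the main fit, 29.3% were also called with depth-matched cells and 17.3% after thinning. The count of 1148 calls became 760 with at least 2 UMIs, 374 with depth-matched cells, 243 after thinning and 1788 in day 28 libraries alone, and 811 to 1205 without 1 library. The 437 calls between days became 167 with DESeq2, 72 with depth-matched cells and 2 with no replicate block, and 220 to 573 without 1 library. For day 14 against day 7, the count of 0 became 17 with DESeq2, 9 with the replicate block, 3 in cells with both genes, and 0 to 9 without 1 library. For day 28 against day 7, 50 became 133 with DESeq2, 30 with RLE, 10 with no filter, 104 with the replicate block, 29 without the 5% highest doublet scores, 2 with at least 5 UMIs, and 2 to 135 without 1 library. For day 28 against day 14, 11 became 20, 1, 34, 7 and 3 with DESeq2, no filter, the replicate block, the doublet scores and 5 UMIs, and 0 to 66 without 1 library. The causes were not tested. Day 28 against XEN gave 1960 to 3393 calls without 1 library. The share of 3.99% became 5.87% and 2.60% with at least 2 and 5 UMIs. Replicate numbers did not pair the libraries (correlations of -0.149 to 0.256), and the 7 cells of day 7 replicate 1 limit depth most.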

Other observations

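Several gene groups showed no calls between Amn/Cubn cells and comparison cells. Of 20 genes of G2 and M phase and 20 of G1 and S phase, 0 were called by edgeR, with median log2 fold changes of 0.10 and 0.13 (all genes -0.04), and 0 of 13 mitochondrial genome genes were called, with a median of 0.08, or 0.26 at matched depth, where 13 of 13 were positive and 0 called. The median share of mitochondrial UMIs per cell was higher in Amn/Cubn cells in each of the 6 libraries, at 2.08% to 4.21% against 1.73% to 3.50% in comparison cells. Of 12 AP-1 and immediate early genes, Fosl2 and Ier3 were lower, where 5.16% of all genes were. Of 7 tested stomach-type genes, Tff1, Tff2, Gkn1 and Gkn2 were lower, while the membrane mucins Muc1 and Muc13 were higher. In cells with both rule genes the call of Muc1 was lost (adjusted p = 0.0752), and neither mucin was tested at matched depth.

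Against XEN cells, 15% of all genes were higher and 11.2% lower in Amn/Cubn cells of day 28. Comparison cells were not tested against XEN. Of 16 cholesterol synthesis genes, 10 were higher in these Amn/Cubn cells and 1, Insig1, lower, with a median log2 fold change of 1.13. Of 19 lysosomal genes 8 were higher and 1 lower, and of 13 mitochondrial genome genes 8 were higher. Among immediate early genes Egr1, Fos, Fosb, Ier2 and Jun were higher, and Fosl1, Fosl2 and Ier3 lower.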
